A study of Oryctolagus cuniculus with 4 samples.

Results

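Capillary-like endothelial cells were examined in single-cell RNA sequencing libraries of rabbit bladder mucosa. Of 21945 cells kept from 25659 barcodes, 5132 fell in a gate for blood endothelial cells, and 1307 of these were capillary-like. They were selected on their own unique molecular identifier (UMI) counts, each UMI standing for 1 captured RNA molecule. A kept cell had at least 500 UMIs and 200 genes and at most 15% of its UMIs in 13 mitochondrial genes. An endothelial cell had at least 3 of the 8 genes VWF, PECAM1, CDH5, EMCN, KDR, SELP, TM4SF1 and TM4SF18 detected. It also had less than 0.5% of its UMIs in the fibroblast genes DCN and LUM, and no UMI of PTPRC, PROX1 or MZB1, which mark leukocytes, lymphatic endothelium and plasma cells. Capillary-like cells had at most 1 UMI of BMX and ATP2A3 together and more UMIs of KDR and ESM1 than of SELP and SELE.

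The samples came from rabbits of the New Zealand strain, described in the study's methods as adult, with no genotype or age given in the sources used here. Samples Injury_1 and Injury_2 were mucosa taken 10 days after a focal resection of the mucosa, and Normal_1 and Normal_2 were uninjured mucosa. All 4 were cut up and digested with collagenase II before capture, and each gave 1 library, so each condition rests on 2 samples. The study's text calls the samples of a condition biological replicates, but the labels do not say that they came from separate rabbits, so p-values measure the spread between these samples, which may in part be technical. The tissue is labelled urothelium, but 7705 of the kept cells carried at least 0.5% of their UMIs in DCN and LUM with fewer than 3 of the 8 endothelial genes and no PTPRC, and these serve below as the fibroblast gate.

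Capillaries are the smallest blood vessels and exchange gas, water and solutes with the tissue around them. Their endothelium responds to vascular endothelial growth factor (VEGF) through the receptor KDR, and ESM1 (endocan) is a secreted proteoglycan known from sprouting endothelium that sees VEGF. Venules, by contrast, carry the selectins SELP and SELE, with which leukocytes are caught at sites of inflammation. In a healing wound new vessels sprout from existing ones, so endothelium of this kind is of interest 10 days after mucosal resection.

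The libraries held 4308 to 6081 kept cells with a median of 4813.5 to 7186 UMIs per cell, lowest in Normal_1. There were 114 and 141 capillary-like cells in Injury_1 and Injury_2, against 412 and 640 in Normal_1 and Normal_2. Their median depth was 5342.5, 5735, 4211.5 and 6057.5 UMIs in the same order, and their UMIs summed to 686324, 923033, 2148304 and 4948736. The injured sums were therefore the shallower ones. Between 4 and 12 barcodes were shared by any pair of libraries, and 1 was shared among capillary-like cells, between Injury_2 and Normal_1. Of the capillary-like cells, 0.877 to 3.44% per library lay in the top 5% of doublet scores.

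The genes used for selection are given as a description only. The level of a gene is written in CPM, the UMIs of the gene per 1e+06 UMIs summed over the cells of a class in a sample. KDR stood at 294 and 356 CPM in the injured and at 240 and 224 CPM in the normal samples. ESM1 stood at 347, 665, 1295 and 835 CPM. Both injured samples thus lay above the normal ones for KDR and below them for ESM1. SELP was 41.6 to 88.8 CPM in capillary-like cells and 1748 to 2368 CPM in venous-like cells, which were selected by the reverse of the same rule. TM4SF18, a tetraspanin-like membrane protein used in the wider gate, ranged from 252 to 364 CPM.

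DYSF, which encodes the membrane repair protein dysferlin, was the marker that the selection did not use. It was chosen with earlier results of these data known, so its level is a description as well. It reached 213, 264, 216 and 183 CPM in capillary-like cells of the 4 samples in the order given above, against 101 to 133 CPM in venous-like and 66.0 to 109 CPM in arterial-like cells. The fibroblast gate had 0.838 to 1.53 CPM of it. DYSF was thus higher in capillary-like cells in every sample. Of the markers of other cells, PTPRC and MZB1 were at 0 by the gate. The 6 fibroblast markers summed to 249 to 1961 CPM in capillary-like cells and 74870 to 137680 CPM in the fibroblast gate, with the highest capillary-like sum in Normal_2. The 6 epithelial markers summed to 539, 47.7, 233 and 108 CPM in capillary-like cells, in the same sample order. In venous-like cells their sums were 77.3, 113, 87.6 and 69.9 CPM, so the capillary-like sum was the higher one except in Injury_2. The part of epithelial RNA in the capillary-like cells was not tested.

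The threshold cut a continuous range. The 389 cells just inside, with 1 UMI more of KDR and ESM1 than of SELP and SELE, had 144 to 263 CPM of KDR and 21.9 to 94.2 CPM of ESM1. The 679 cells just outside, with equal UMIs, had 27.3 to 143 CPM of KDR and 6.30 to 22.0 CPM of ESM1. TM4SF18 was 206 to 260 CPM inside and 216 to 291 CPM outside. Cells just inside made up 50.0% and 30.5% of the capillary-like cells of the injured samples and 26.5% and 28.1% of those of the normal ones.

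Whether injured mucosa held another proportion of these cells was asked first. Capillary-like cells were 10.2% of the blood endothelial gated cells in Injury_1 (95% Wilson interval 8.59 to 12.2%) and 18.1% in Injury_2 (15.6 to 21.0%). They were 24.9% in Normal_1 (22.9 to 27.1%) and 40.3% in Normal_2 (37.9 to 42.7%). The mean was 14.2% ± 5.58 (SD, n = 2) in injured and 32.6% ± 10.9 (SD, n = 2) in normal samples. Both injured samples lay below both normal samples, by a two-sided exact permutation test with p = 0.33, the smallest value that 2 samples against 2 allow. The intervals cover counting error alone. In dissociated tissue, a smaller number of cells of a type in the bladder and a smaller yield of them cannot be told apart.

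Of all kept cells, capillary-like cells formed 1.87%, 2.55%, 9.56% and 10.6% in Injury_1, Injury_2, Normal_1 and Normal_2. The injured mean was 2.21% ± 0.478 (SD, n = 2) and the normal mean 10.1% ± 0.746 (SD, n = 2), a difference of -7.88 percentage points. The exact permutation p was again 0.33, the floor of the design. This share also moves with the number of all other cells recovered.

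**Figure D1:**
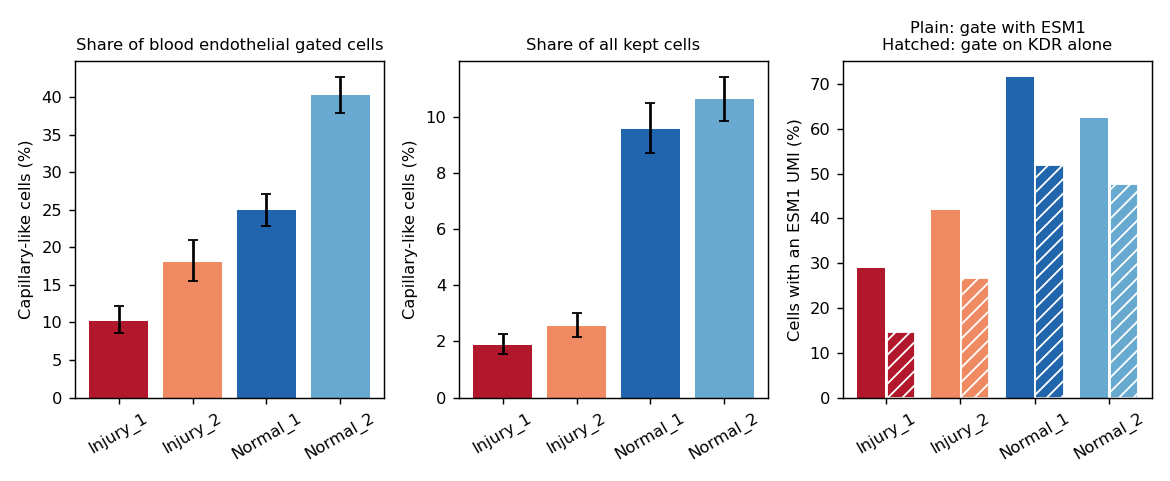
Capillary-like cells in each of the 4 samples, as a percentage of blood endothelial gated cells (left), of all kept cells (middle, both with 95% Wilson intervals) and the percentage of them with at least 1 ESM1 UMI (right, plain bars for the gate with ESM1 and hatched bars for a gate on KDR alone). Both injured samples sit below both normal samples in each panel.

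ESM1 was found in fewer of the injured cells. At least 1 ESM1 UMI was seen in 28.9% and 41.8% of injured and in 71.6% and 62.3% of normal capillary-like cells. In the fibroblast gate, where ESM1 should be lacking, the share was 1.03%, 0.912%, 0.727% and 0.570%, at median depths of 4976 to 8536.5 UMIs against 4211.5 to 6057.5 in capillary-like cells. With each cell thinned to 1000 UMIs, the capillary-like shares were 14.0%, 24.1%, 46.9% and 35.1%, and those of the fibroblast gate 0.122 to 0.228%. Since ESM1 is part of the selection, the cells were selected again with KDR alone set against SELP and SELE, a choice made after the data had been seen. That left 911 cells, and 14.7% (Injury_1), 26.8% (Injury_2), 51.9% (Normal_1) and 47.7% (Normal_2) of them held an ESM1 UMI. The injured mean was 20.8% ± 8.52 and the normal mean 49.8% ± 2.92 (SD, n = 2 each, exact permutation p = 0.33). In those cells the log2 fold change of ESM1 between injured and normal was -2.02 ± 0.54 (SE), which edgeR did not call (adjusted p = 0.383).

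Which other genes set capillary-like cells apart was examined against venous-like cells (2865 cells) of the same samples. Most tested genes of vessel sprouting (6 of 8) and of the basement membrane (9 of 12) were higher in capillary-like cells, and 5 of 6 leukocyte adhesion and chemokine genes and CLU were lower. Of 6539 genes fitted with edgeR on sums per sample and class, with the sample as a block, 468 (7.16%) were higher and 568 (8.69%) lower at an adjusted p below 0.05. The 30 genes of the selection were left out. Because the cells were divided on their own counts, these calls describe how steadily a gene separates the classes over 4 samples and do not test groups set independently. The number of calls fell to 607 without Normal_2 and to 545 when cells were thinned to 2000 UMIs before the gate.

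The largest increase was that of BTNL9, a butyrophilin-like membrane protein of the immunoglobulin superfamily. It measured 59.7, 37.9, 25.1 and 4.85 CPM in capillary-like cells and 1.96, 1.61, 1.09 and 0 CPM in venous-like cells (the injured samples first, here and below), a log2 fold change of 4.57 ± 0.29 (SE). CD300LG, a mucin-like receptor known from capillary endothelium, stood at 121 to 178 CPM against 10.9 to 20.5 CPM (log2 fold change 2.99 ± 0.14). UNC5B, a netrin receptor of sprouting and arterial endothelium, measured 169, 219, 155 and 119 CPM against 14.3, 12.3, 22.8 and 29.4 CPM (2.86 ± 0.27). Each of these genes was higher in capillary-like cells in 4 of 4 samples, although the BTNL9 level in Normal_2 was low.

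The remaining genes named on this side had log2 fold changes of 1.98 to 2.94. They were GPM6A, a neuronal membrane glycoprotein, HNMT, which degrades histamine, and PCSK5, a convertase of secreted proproteins. NES (nestin, an intermediate filament of immature and sprouting endothelium) averaged 133 CPM ± 58.9 against 24.3 ± 12 (SD, n = 4), and PDGFD, a platelet-derived growth factor, 33.7 ± 4.82 against 6.17 ± 0.943. The chemokine receptor CXCR4 averaged 64.1 CPM ± 17.1 against 13.8 ± 7.84. ARL15 (a small GTPase), NPNT (nephronectin, a matrix ligand of integrins) and ABCC9 (a regulatory subunit of potassium channels) completed the group. ABCC9 is also a pericyte marker, and in capillary-like cells it stood at 5.83 and 10.8 CPM in the injured and 59.6 and 39.4 CPM in the normal samples.

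**Figure D2:**
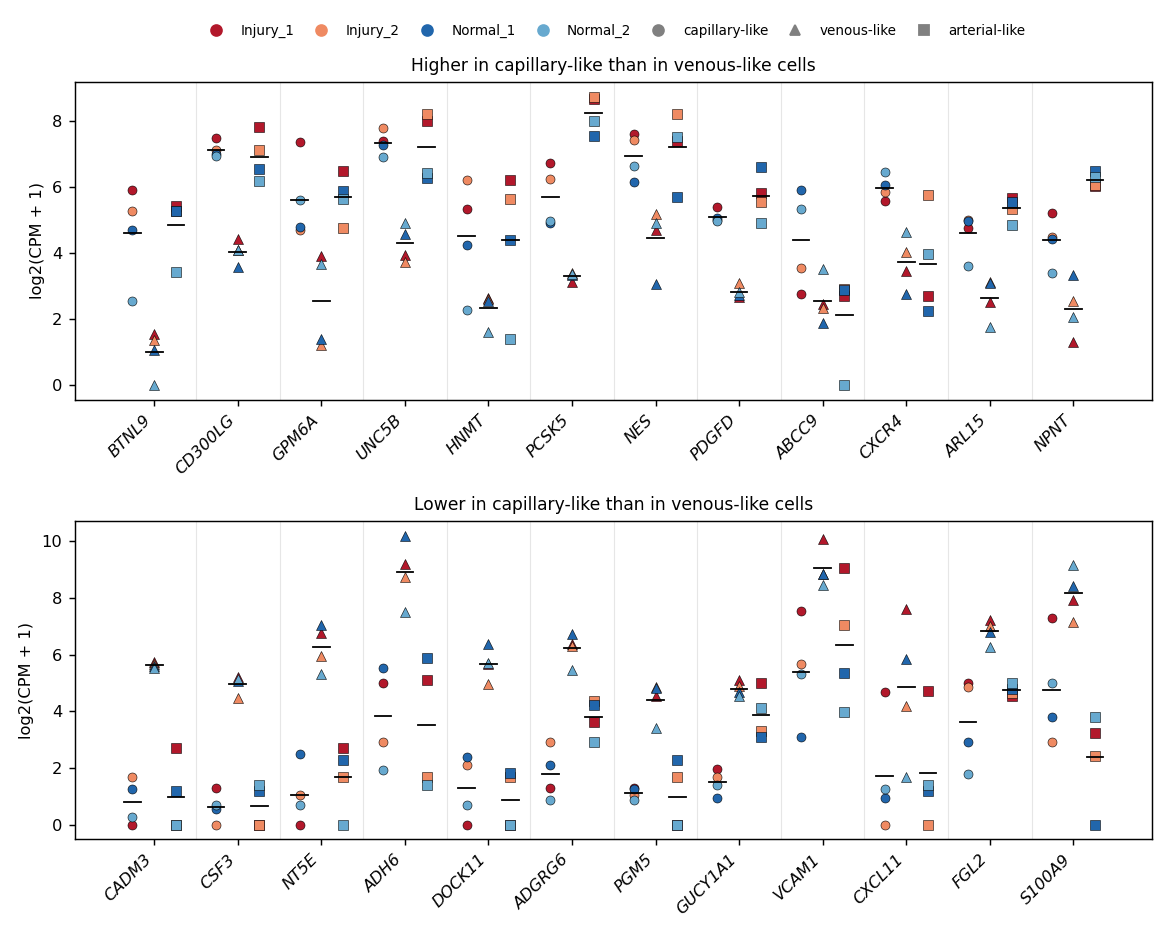
Levels, as log2(CPM + 1), of the 12 genes with the largest increase (top) and the 12 with the largest decrease (bottom) in capillary-like against venous-like cells, with arterial-like cells beside them. Each symbol is 1 sample, coloured by sample and shaped by class, and lines mark means of the 4 samples. BTNL9, CD300LG and UNC5B lie at similar heights in capillary-like and arterial-like cells, and CADM3, CSF3 and NT5E are high in venous-like cells alone among these classes.

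Genes lower in capillary-like cells were led by CADM3, a cell adhesion molecule, with 6 UMIs in all capillary-like cells against 1015 in venous-like cells. The ratio of its summed levels was 71.1 (95% counting interval 32.5 to 194). CSF3, the granulocyte colony-stimulating factor, had 5 UMIs against 661, a ratio of 55.5 (23.7 to 172). NT5E, the ecto-nucleotidase that makes adenosine from AMP, measured 0, 1.08, 4.65 and 0.606 CPM against 106, 61.1, 131 and 39.3 CPM in the 4 samples (log2 fold change -5.58 ± 0.28). ADH6, an alcohol dehydrogenase, measured 30.6, 6.50, 44.7 and 2.83 CPM against 590, 428, 1171 and 180 CPM (-5.21 ± 0.23). All 4 genes were lower in capillary-like cells in every sample.

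The same was seen for DOCK11 (an activator of small GTPases), ADGRG6 (an adhesion G protein-coupled receptor), PGM5 and GUCY1A1 (a subunit of the nitric oxide receptor guanylate cyclase), with log2 fold changes of -5.10 to -4.04. VCAM1, the vascular adhesion molecule bound by leukocyte integrins, averaged 70.0 CPM ± 77.8 against 590 ± 340 (SD, n = 4). CXCL11, an interferon-induced chemokine, had 0 to 24.8 CPM against 2.24 to 196 CPM, and FGL2, a fibrinogen-like protein, 2.42 to 30.6 CPM against 76.8 to 147 CPM. S100A9, a calcium-binding protein that is also a neutrophil marker, was named by the same rule. It had 6.50 to 156 CPM in capillary-like and 143 to 572 CPM in venous-like cells (log2 fold change -3.46 ± 0.56), with the 156 CPM in Injury_1. The log2 fold change was -4.50 with at least 1000 UMIs and 500 genes per cell and -4.52 without Injury_1. The limit on UMIs and genes kept 112 of the 114 capillary-like cells of Injury_1. The part of a few shallow cells and of leukocyte RNA in this difference was not tested.

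In the lists against venous-like cells that follow, the counts stand beside 7.16% of all genes called higher and 8.69% called lower. The VEGF pathway split. Of 12 genes listed, 8 were in the tables and 6 could be tested beside KDR. VEGFA and the related ligand PGF were higher in capillary-like cells, and TEK, the angiopoietin receptor, was lower. VEGFA measured 42.3, 44.4, 55.9 and 56.4 CPM against 14.5, 11.3, 10.2 and 12.9 CPM in venous-like cells (log2 fold change 1.90 ± 0.18). Every capillary-like value was above every venous-like one. Endothelium is better known for answering VEGFA than for making it. In the fibroblast gate 22.6 to 35.6% of cells carried a VEGFA UMI against 18.4 to 28.1% of capillary-like cells. Thinned to 1000 UMIs, these shares were 3.93 to 7.67% and 4.05 to 5.30% in the same order. In venous-like cells the thinned share was 0.972 to 1.51%, below every value of both. The part of free RNA in the VEGFA difference was not tested.

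Of the tip cell and sprouting list, whose genes guide new vessel branches, 8 genes were tested and 6 were higher, with a median log2 fold change of 0.72 against 0.00 for all genes. DLL4, the Notch ligand of the leading cell of a sprout, measured 42.3, 48.8, 34.0 and 41.8 CPM against 14.3, 9.64, 7.10 and 14.5 CPM (1.72 ± 0.19). ADM, NID2, ROBO4, CXCR4 and UNC5B were the others. Of 5 Notch genes tested, DLL4 and the target HEY1 were higher and the ligand JAG1 was lower. In arterial-like cells DLL4 ranged from 27.9 to 52.8 CPM, across the capillary-like values.

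The list of capillary genes was compiled from general knowledge of these vessels, but with earlier results of these data known. It gave 8 higher and 2 lower of 12 tested (median log2 fold change 0.75). EDNRB, an endothelin receptor, measured 229, 271, 422 and 259 CPM against 71.3, 86.3, 88.3 and 84.4 CPM (1.64 ± 0.14). KIT, SPARC, SGK1, ADGRF5, ADGRL4, BTNL9 and DYSF were the other higher ones. FABP5 and CD36, which take up and carry fatty acids, were lower. FABP5 had 1125, 654, 72.6 and 111 CPM against 1951, 2108, 215 and 749 CPM (-1.87 ± 0.23). Both of these lower genes are known as capillary genes of muscle and fat. Against arterial-like cells, the same list gave 3 higher and 3 lower of 10 tested (median 0.12), so it did not set capillary-like cells apart from those.

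The venous list went the other way, with 5 of 9 genes lower and none higher (median -1.32). CLU (clusterin, a secreted chaperone) had 551 to 2532 CPM against 3406 to 4884 CPM. CCL2, a chemokine for monocytes, measured 695, 645, 209 and 480 CPM against 3420, 1739, 978 and 1006 CPM (-1.91 ± 0.20). Of 6 leukocyte adhesion and chemokine genes, 5 were lower (median -2.10) and ICAM2 stood at 543 CPM against 495. Of 11 interferon and antigen presentation genes, 5 were lower (median -0.41), among them B2M, HLA-DRA and CD74, where 8.69% of all genes were lower. The 7 haemostasis genes tested were mixed, with PLAU (urokinase) and PROS1 (protein S) higher and PROCR (the protein C receptor) and TFPI (tissue factor pathway inhibitor) lower.

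Basement membrane genes were higher almost throughout, with 9 of 12 tested higher and none lower (median 0.96). COL4A1, a chain of type IV collagen, measured 761, 1226, 795 and 826 CPM against 346, 489, 257 and 442 CPM (log2 fold change 1.08 ± 0.12). LAMB1, a laminin chain, measured 342, 386, 286 and 293 CPM against 96.0, 126, 58.5 and 109 CPM (1.62 ± 0.14). Both genes were higher in capillary-like cells in all 4 samples without overlap. The others were COL4A2, LAMA4, HSPG2 (perlecan), SPARC, NID2, COL15A1 and FN1 (fibronectin). The fibroblast markers, which include other collagens, gave 0 calls of 4 tested in edgeR, with 1 gene at an unadjusted p below 0.05. DCN and LUM, which the gate limits in both classes, were left out. The pericyte and smooth muscle markers gave 1 higher call (ABCC9) of 5 tested (median 0.51). Of 5 epithelial markers tested, 0 were called, with 4 higher and 0 lower at an edgeR unadjusted p below 0.05 (median 1.31). The part of RNA from other cells in these differences was not tested.

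Arterial-like cells (281 cells with at least 2 UMIs of BMX and ATP2A3 together) were the other neighbour. Against these, 8 of 11 basement membrane genes and 4 of 6 venous genes tested were higher in capillary-like cells, and 4 of 7 arterial genes, the ligand JAG1 among them, were lower. Of 4276 genes tested, 287 (6.71%) were higher and 262 (6.13%) lower by edgeR, with the same reading as above. The calls depended on the samples and the gate, and numbered 341 without Injury_2, 264 without Normal_1 and 75 after thinning to 2000 UMIs.

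**Figure D3:**
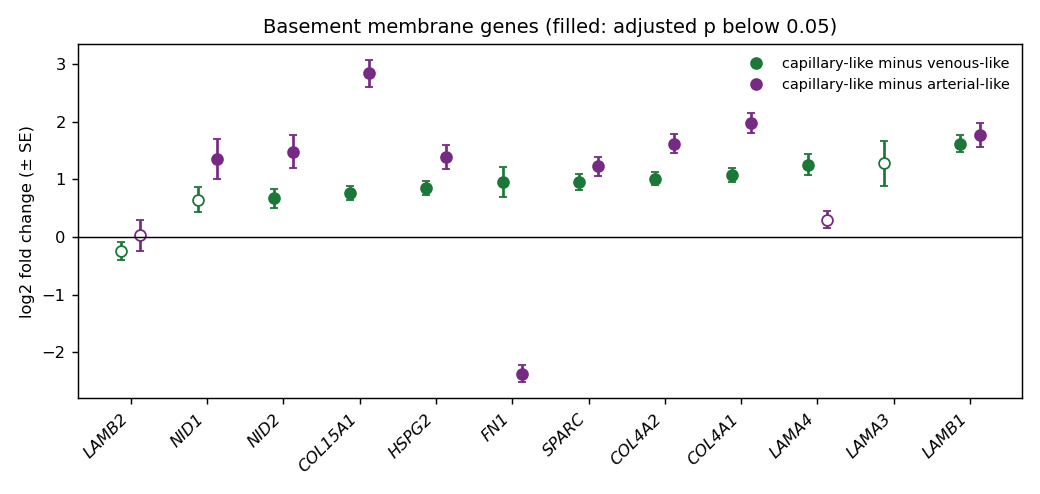
Log2 fold changes with standard errors of the basement membrane genes in capillary-like against venous-like (green) and against arterial-like cells (purple), from sums of 4 samples. Filled points have an edgeR adjusted p below 0.05, most genes lie above 0 in both, and FN1 lies at 0.96 in one and -2.37 in the other.

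ITIH5, an inter-alpha-trypsin inhibitor heavy chain that binds hyaluronan, had the largest increase over arterial-like cells. It measured 29.1, 112, 120 and 150 CPM against 11.2, 4.40, 8.88 and 11.4 CPM (log2 fold change 3.67 ± 0.31). COL15A1, a collagen of the basement membrane zone around small vessels, measured 185, 165, 109 and 80.6 CPM against 27.9, 37.4, 14.0 and 4.90 CPM (2.84 ± 0.23). F3, tissue factor, which starts coagulation, measured 26.2, 15.2, 87.0 and 82.6 CPM against 14.0, 6.60, 3.81 and 4.90 CPM (3.23 ± 0.46). These genes were higher in every sample, F3 by least in the injured ones. ITLN1 (an intelectin), SLAMF1, MATN2 (a matrix protein), CCL14 (a chemokine) and DTL (an adaptor of DNA replication control) completed this side at 2.70 to 3.65. ITLN1 and SLAMF1 had only 5 and 8 UMIs in arterial-like cells, with ratios of 9.71 (counting interval 4.09 to 30.2) and 10.2 (5.10 to 23.8).

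Lower than in arterial-like cells were TMEM100 (-4.43 ± 0.49), a membrane protein downstream of BMP signals, and SLC8A1, a sodium-calcium exchanger. PTGER4 (a prostaglandin E2 receptor), SPOCK2, PLCG2 (a phospholipase C), SNCG (gamma-synuclein) and PCSK5 followed. VEGFC, the growth factor of lymphatic vessels, measured 46.6, 35.8, 2.79 and 3.23 CPM against 151, 143, 45.7 and 67 CPM in arterial-like cells (-2.69 ± 0.37). PCSK5 measured 105, 74.8, 29.3 and 30.1 CPM against 402, 427, 186 and 255 CPM (-2.50 ± 0.16). PCSK5 was thus between venous-like cells, where it had 7.83 to 9.64 CPM, and arterial-like cells.

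Of the arterial list, 4 of 7 tested genes were lower than in arterial-like cells (MECOM, JAG1, EPAS1 and HEY1), whereas 5 of 7 had been higher than in venous-like cells. HEY1, a transcription factor induced by Notch, measured 205, 203, 88.4 and 132 CPM in capillary-like, 121, 89.2, 41.3 and 71.9 CPM in venous-like and 318, 361, 112 and 198 CPM in arterial-like cells. HEY1 therefore had an intermediate level in every sample. UNC5B, DLL4, EFNB2, BTNL9 and EDNRB were not called against arterial-like cells, with log2 fold changes of -0.14 to 0.17. Of 11 basement membrane genes tested here, 8 were higher and FN1 alone was lower (median 1.39). Of all genes, 6.71% were higher and 6.13% lower in this comparison. Of 8 interferon genes, 4 were higher (median 0.47), led by IFIT2 at 1.99, although IFIT2 ranged from 58.6 to 674 CPM among the capillary-like samples.

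How the capillary-like cells varied among themselves was asked by splitting them on ESM1, with 786 cells with and 521 without an ESM1 UMI. The cells with ESM1 were deeper in each sample, with a median of 4382 to 6676 UMIs against 3959 to 5641. CCL14 and the basement membrane genes COL4A2 and LAMB1 were higher in cells with ESM1, and FABP5, F3 and ID1 were lower. Of 3708 genes tested, 16 (0.431%) were higher and 14 (0.378%) lower by edgeR. ESM1 is part of the selection, so cells without it entered on KDR alone, and these calls do not test groups set independently. There were 11 calls without Injury_2, 16 without Normal_1 and 47 without Normal_2.

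CCL14 measured 221, 124, 147 and 65.5 CPM in cells with ESM1 and 12.7, 32.8, 45 and 18.8 CPM in cells without (log2 fold change 2.12 ± 0.24). COL4A2 measured 2679, 2494, 1149 and 1611 CPM against 1286, 1925, 634 and 1188 CPM (0.68 ± 0.09). Both were higher in every sample, although the samples overlapped for COL4A2. THBS1 (thrombospondin-1, an inhibitor of angiogenesis), TIMP1 (an inhibitor of matrix proteases), LAMB1, CA2 (a carbonic anhydrase), PRSS23 (a serine protease) and ABCC9 were the other higher ones, at 0.50 to 1.29. Of 10 basement membrane genes, COL4A2 and LAMB1 were called, and the median was 0.43 against 0.00 for all genes. ABCC9 was the single pericyte marker with enough UMIs to be tested. With cells thinned to 2000 UMIs before the gate, CCL14 fell to a log2 fold change of 0.99 and kept its call (edgeR adjusted p = 0.0467). CA2 (0.34) and PRSS23 (0.12) lost theirs, with an edgeR adjusted p of 0.780 and 0.913.

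On the other side ENPP3, an ectonucleotidase, measured 4.70, 19.8, 29.7 and 12.6 CPM in cells with ESM1 and 33.8, 166, 157 and 45.3 CPM in cells without (-2.29 ± 0.21). FABP5 measured 902, 420, 47.8 and 78.2 CPM against 1225, 837, 137 and 173 CPM (-0.96 ± 0.13, and -1.72 after thinning to 2000 UMIs). In both subsets FABP5 was higher in the injured than in the normal samples. CD109 (a membrane co-receptor of TGF-beta), F3, ATP13A3 (a polyamine transporter), SNCG, TXNIP (a binding partner of thioredoxin) and ID1 (a target of BMP signals) were lower as well, at -1.49 to -0.78. The sprouting genes tested, 7 in number, gave 0 calls by edgeR, with 3 higher and 1 lower at an unadjusted p below 0.05.

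Injured and normal capillary-like cells, selected by the same rule, were compared next. Their make-up differed, as 50.0% and 30.5% of injured but 26.5% and 28.1% of normal members lay just inside the threshold. An ESM1 UMI was held by 28.9% and 41.8% of injured and 71.6% and 62.3% of normal members. A change within the vessels and a change in which cells were selected cannot be told apart here. No gene passed the threshold among 5433 tested by edgeR (0.0% called), whereas 533 (9.81%) had an unadjusted p below 0.05. DESeq2, used as the other tool, called 37 genes, 23 higher and 14 lower in injured samples. After edgeR scaling (TMM), both injured samples were above both normal ones for 1148 genes (21.1%) and below them for 1192 (21.9%). With summed UMIs alone as the scale these numbers were 1664 and 661, since the median of all genes then moved to 0.16 on the log2 scale in favour of injured samples. Leaving out a sample raised the edgeR count from 0 to 31 (Injury_1), 12 (Injury_2), 93 (Normal_1) or 302 (Normal_2), with the lone sample assumed to vary like the other group. The values below are thus descriptions of genes that edgeR did not call. DESeq2 called 9 of the 10 genes named by their p below, with COX4I2 as the exception (adjusted p = 0.0603), and also called FOS, ATF3, DUSP1, HES1 and FN1.

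The 5 genes with the smallest p among those higher in injured cells were VEGFC, HAPLN1, FABP5, THSD7A and EGR1, with an adjusted p of 0.154 to 0.167. VEGFC had 46.6 and 35.8 CPM in injured against 2.79 and 3.23 CPM in normal samples, a log2 fold change of 3.52 ± 0.41 (SE). FABP5 had 1125 and 654 CPM against 72.6 and 111 CPM (3.06 ± 0.39). EGR1, a transcription factor switched on within minutes of a stimulus, had 138 and 143 CPM against 36.8 and 38.2 CPM (1.73 ± 0.25). For these 3 genes the replicates of a condition lay closer to each other than to the other condition.

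THSD7A, a membrane protein with thrombospondin repeats, had 58.3 and 62.8 CPM in injured against 9.78 and 10.1 CPM in normal samples (2.42 ± 0.32). HAPLN1, which links hyaluronan to proteoglycans, had 34 UMIs in injured and 4 in normal cells, a ratio of summed levels of 37.5 (95% counting interval 13.4 to 145). Among other classes, arterial-like cells had 45.7 to 151 CPM of VEGFC and 60.5 to 101 CPM of THSD7A. The part of arterial-like cells in the difference was not tested.

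The 5 genes with the smallest p among those lower in injured cells were IBSP, F3, LRRC8D, COX4I2 and ABCC9, with an adjusted p of 0.154 to 0.184. IBSP, the bone sialoprotein, had 1 UMI in injured and 469 in normal capillary-like cells, a ratio of 106 with a counting interval of 19.0 to 4210. F3 had 26.2 and 15.2 CPM in injured against 87.0 and 82.6 CPM in normal samples (log2 fold change -2.24 ± 0.32), and its log2 fold change was -1.59 with a mitochondrial limit of 10%, -1.66 without the top 5% of doublet scores and -1.52 with a margin of 2 UMIs in the gate. LRRC8D, a subunit of volume-regulated anion channels, had 17.5 and 19.5 CPM against 64.2 and 76.0 CPM (-2.09 ± 0.32). The conditions did not overlap for any of them.

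COX4I2, an isoform of a subunit of cytochrome c oxidase, had 5 UMIs in injured and 164 in normal cells, a ratio of 7.44 (counting interval 3.12 to 23.2). Its log2 fold change of -3.09 became -1.66 with a mitochondrial limit of 10%, -2.20 with a margin of 2 UMIs and -5.03 with the gate on KDR alone. Like ABCC9 (-2.66 ± 0.43), COX4I2 is known from pericytes, the contractile cells that sheathe capillaries. Of 5 pericyte and smooth muscle markers tested, 4 were lower in both injured samples than in both normal ones, as 21.9% of all genes were, and the median log2 fold change was -2.33 against -0.01 for all genes. The 7 markers of that list found in the tables summed to 13.1 and 45.5 CPM in the injured and to 119 and 133 CPM in the normal samples. In Injury_1 3 of the 7 were at 0 and in Injury_2 2 were. In arterial-like cells the sum was 50.6 to 201 CPM without that order. RGS5, the most used pericyte marker, had 1.46 and 6.50 CPM against 24.7 and 26.7 CPM. The part of pericyte RNA in these differences was not tested.

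**Figure D4:**
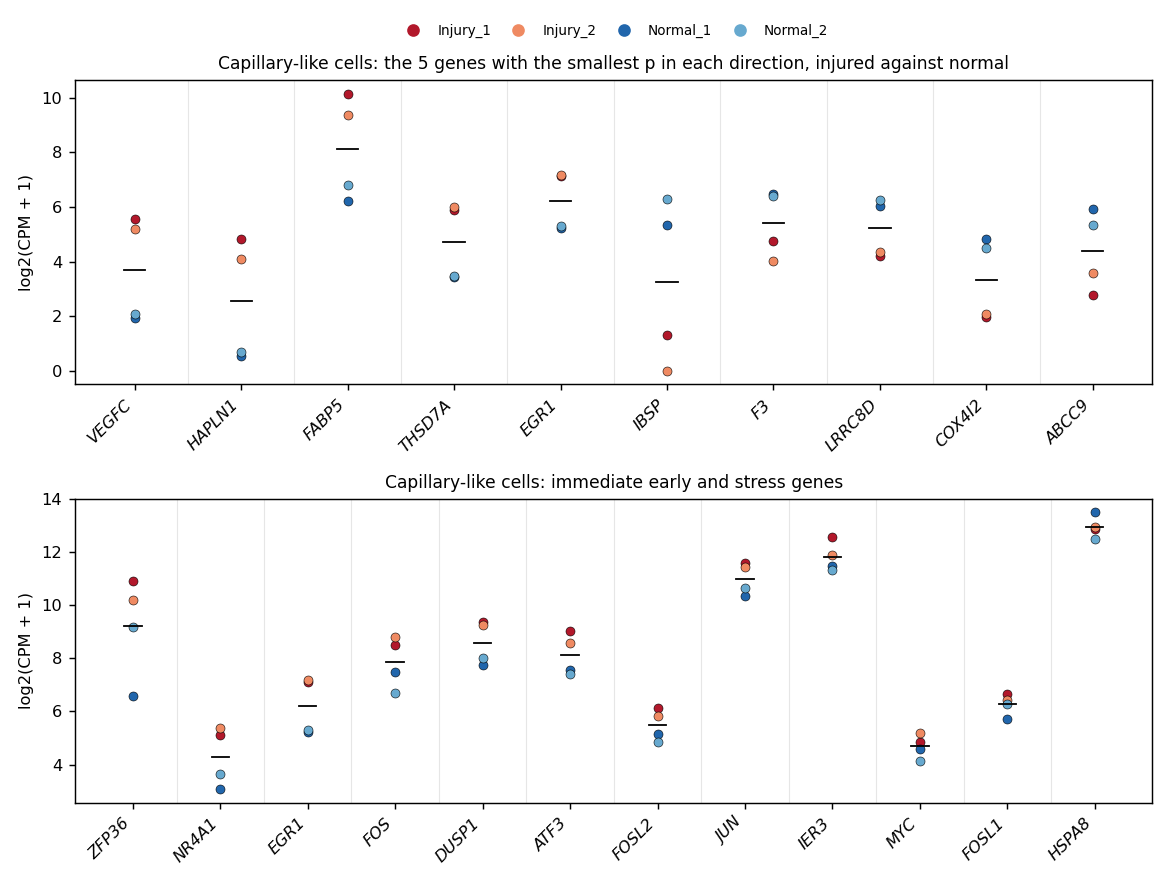
Levels, as log2(CPM + 1), in capillary-like cells of the 4 samples. The top panel shows the 5 genes with the smallest p in each direction between injured (red and orange) and normal (blue) samples, and the bottom panel the immediate early and stress genes, with lines at the mean of the 4 samples. None of these genes was called by edgeR, and in the top panel both conditions lie apart for every gene.

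Immediate early genes, transcribed within minutes of a stimulus, had high values in injured cells. Of 12 tested, 10 were higher in both injured samples than in both normal ones, where the figure for all genes is 21.1%, and the median log2 fold change was 1.01. FOS, a subunit of the transcription factor AP-1, had 361 and 443 CPM in injured against 178 and 102 CPM in normal samples (1.38 ± 0.30). ATF3, a stress-induced transcription factor, had 523 and 386 CPM against 186 and 170 CPM (1.17 ± 0.24). DUSP1, a phosphatase of MAP kinases, had 663 and 610 CPM against 213 and 259 CPM (1.24 ± 0.27). NR4A1, JUN, FOSL2, IER3, MYC, EGR1 and ZFP36 were the others. In the fibroblast gate, FOS had 429 and 526 CPM against 439 and 325 CPM, and ATF3 563 and 602 CPM against 732 and 555 CPM. The conditions overlapped there for both genes, and the other genes of the list are not given for that gate. Set against venous-like cells, the injury log2 fold change was larger in capillary-like cells by a median of 0.51 over the 12 genes. In that test, described below, edgeR called 0 of them, with 7 larger and 1 smaller at an unadjusted p below 0.05. The rise is therefore not shown to be particular to capillary-like cells. Immediate early genes also answer to handling of tissue, and the part of tissue handling in the difference was not tested.

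Of the lists that set the classes apart, the 7 sprouting genes tested had a median of 0.09, with 0 of them higher and 1 (CXCR4) lower in both injured samples. CXCR4 had 46.6 and 56.3 CPM against 66.6 and 86.7 CPM (-0.75 ± 0.31). Of 11 basement membrane genes, 4 were higher in both injured samples and 0 lower (median 0.44), where 21.1% of all genes were higher and 21.9% lower. FN1 had 1300 and 456 CPM against 95.4 and 201 CPM (2.32 ± 0.58) and COL15A1 185 and 165 CPM against 109 and 80.6 CPM (0.72 ± 0.23). FN1 had 553 to 4223 CPM in arterial-like cells. Of 8 arterial genes, 5 were higher in both injured samples and 0 lower (median 0.36), set against the same 21.1% and 21.9% of all genes, with HEY1 at 205 and 203 CPM against 88.4 and 132 CPM.

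In other lists, too, 21.1% of all genes higher and 21.9% lower in both injured samples is the measure. Of 6 Notch genes, 3 were higher in both injured samples and 0 lower (median 0.25). HES1, a transcriptional repressor that Notch induces, had 1024 and 779 CPM against 317 and 300 CPM (1.37 ± 0.25). Of 12 BMP and TGF-beta genes, 3 were higher and 4 lower (median 0.11). Among them BMP2 had 43.7 and 24.9 CPM against 5.12 and 7.07 CPM (2.23 ± 0.45). Among 7 haemostasis genes, 2 (F3 and PROS1) were lower in both injured samples and 1 was higher, near the 21.9% and 21.1% of all genes. PLAU had 594 and 720 CPM against 342 and 319 CPM (0.83 ± 0.26). ACE, the angiotensin-converting enzyme of endothelium, had 43.7 and 50.9 CPM against 97.8 and 104 CPM (-1.26 ± 0.27). It was 1 of 5 among 9 vasomotor genes that were lower in both injured samples, as 21.9% of all genes were. In both injured samples 2 of the 9 were higher, as 21.1% of all genes were.

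Of 10 cell cycle genes tested, 1 was higher and 1 lower in both injured samples, where 21.1% of all genes were higher and 21.9% lower. The median log2 fold change of the list was -0.03. TOP2A, needed to untangle chromosomes at division, had 35.0 and 53.1 CPM in injured against 52.1 and 29.3 CPM in normal samples. The conditions overlapped. For the 13 hypoxia and glycolysis genes the median was 0.01, and HIF1A, the oxygen-regulated transcription factor, had 806 and 822 CPM against 1856 and 1123 CPM (-1.02 ± 0.29). The interferon list had a median of -0.19 over 9 genes with Normal_1 and Injury_1 high in IFIT2 at 674 and 570 CPM and Normal_2 and Injury_2 low at 58.6 and 120 CPM. IFIT2 thus varied within each condition. On the scale of summed UMIs all these log2 values lie 0.17 higher, so that the medians of the cell cycle list and of other lists within that distance below 0 change sign.

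In cells selected on KDR alone, edgeR called 2 of 4899 genes, 1 of them with a symbol. RGS4, a regulator of G protein signals, which was singled out after its values were seen, had 1.74 and 4.04 CPM in injured against 71.6 and 81.6 CPM in normal samples (log2 fold change -4.77 ± 0.48, edgeR adjusted p = 0.0442). In the cells as first selected RGS4 had 8.74 and 53.1 CPM against 71.2 and 65.1 CPM (edgeR adjusted p = 0.571). Injury_2 therefore changed most between the 2 selections. VEGFC and FABP5 kept log2 fold changes of 3.63 and 3.06 under the selection on KDR alone.

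Whether injury differed in capillary-like from venous-like cells was tested directly, as an interaction in a fit with the sample as a block. Of 7221 genes, 14 (0.194%) were called by edgeR, 6 with a larger and 8 with a smaller injury log2 fold change in capillary-like cells, and 11 of them had a symbol. DESeq2 called 26 and left most genes without an adjusted p. The edgeR count was 154 without Injury_2, 25 without Normal_1 and 8 without Normal_2. Both classes of a sample come from the same suspension, so anything that a sample shares is taken up by the block.

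F3 ran in opposite directions. It had 26.2 and 15.2 CPM in injured against 87.0 and 82.6 CPM in normal capillary-like cells, and 48.1 and 44.7 CPM against 27.3 and 31.1 CPM in venous-like cells (difference of the log2 fold changes -2.86 ± 0.28, edgeR adjusted p = 0.00102). PRSS23 did the same, with 187 and 190 CPM against 302 and 281 CPM in capillary-like and 382 and 416 CPM against 294 and 241 CPM in venous-like cells (-1.34 ± 0.17, edgeR adjusted p = 0.00826). In both genes the conditions were apart in each class. PRSS23 lost its call without Normal_2 (highest adjusted p over the alternatives 0.156), and F3 kept it in the 6 of 7 alternatives that gave it an adjusted p.

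TIMP1 had 1785 and 1571 CPM in injured against 2850 and 4215 CPM in normal capillary-like cells, and 4643 and 3732 CPM against 3444 and 5142 CPM in venous-like cells (-1.16 ± 0.11, edgeR adjusted p = 0.00102). AKAP12, a scaffold of protein kinases, had 554 and 696 CPM against 1354 and 1109 CPM, and 683 and 706 CPM against 826 and 577 CPM (-1.11 ± 0.16). MGP, the matrix Gla protein that inhibits calcification, had 459 and 182 CPM against 1036 and 1219 CPM, and 980 and 430 CPM against 748 and 1032 CPM (-1.65 ± 0.15). All 3 genes were lower in both injured samples in capillary-like cells and overlapped in venous-like cells. MGP was the most abundant of them in the fibroblast gate, at 10856 and 11682 CPM in injured and 30884 and 34475 CPM in normal samples, and the part of RNA from outside the cells was not tested. TIMP1 was not called without Normal_2, nor AKAP12 without Injury_1 or without Normal_2, whereas MGP was called in all 7 alternatives.

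On the other side, HES1 had 1024 and 779 CPM against 317 and 300 CPM in capillary-like and 424 and 377 CPM against 303 and 276 CPM in venous-like cells (0.94 ± 0.15, edgeR adjusted p = 0.0430). VEGFC had 46.6 and 35.8 CPM against 2.79 and 3.23 CPM, and 40.4 and 30.5 CPM against 9.83 and 24.6 CPM (2.68 ± 0.41, edgeR adjusted p = 0.0359). Both were higher in injured samples in each class, by more in capillary-like cells. FGL2 had 30.6 and 28.2 CPM against 6.52 and 2.42 CPM, and 147 and 127 CPM against 112 and 76.8 CPM (2.20 ± 0.34). HES1, VEGFC and FGL2 all lost their calls without Injury_1 or without Normal_2, as AKAP12 did, and HES1 also without Normal_1. DESeq2 gave VEGFC no adjusted p.

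IL1B, the inflammatory cytokine interleukin-1 beta, had the largest difference (3.38 ± 0.40, edgeR adjusted p = 0.00593). It had 205 and 31.4 CPM in injured against 7.45 and 26.1 CPM in normal capillary-like cells, and 75.0 and 28.9 CPM against 76.1 and 118 CPM in venous-like cells. In the fibroblast gate IL1B had 123 and 29.7 CPM in injured against 7.34 and 16.4 CPM in normal samples. The value in capillary-like cells rests on Injury_1, and the call was lost without it (edgeR adjusted p = 0.0759). IL1B is best known from myeloid cells, and the 6 leukocyte markers in the tables summed to 252 CPM in capillary-like cells of Injury_1 against 10.8 to 37.0 CPM in the other samples, with 3 of the 6 at 0 there, PTPRC by the gate, and S100A9 at 156 CPM. The part of leukocyte RNA in the IL1B difference was not tested.

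**Figure D5:**
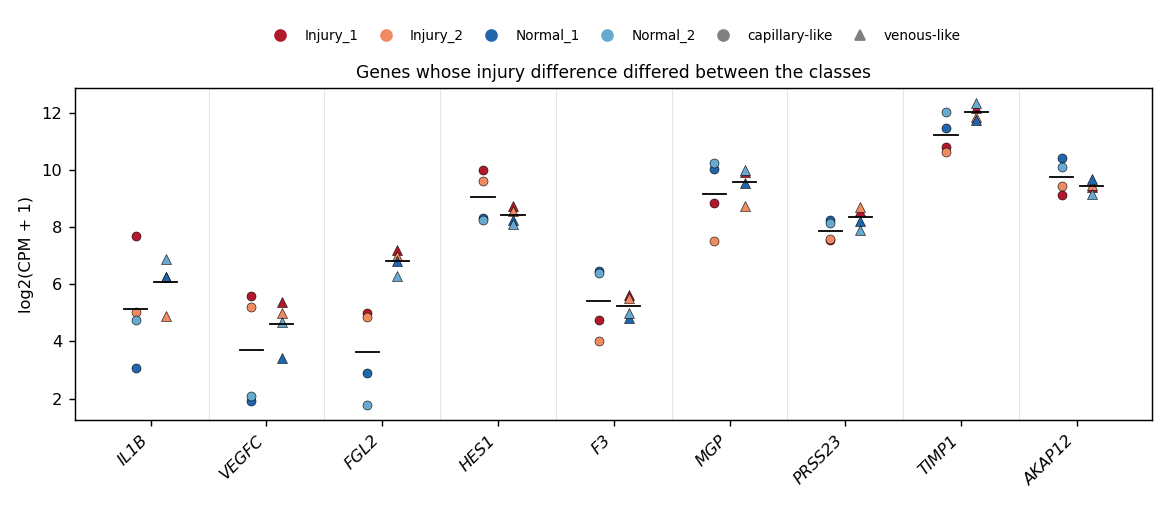
Levels, as log2(CPM + 1), of the genes named from the test of the injury difference between classes, in capillary-like (circles) and venous-like cells (triangles) of the 4 samples, with lines at the mean of each class. For F3 and PRSS23 the injured samples lie below the normal ones among the circles and above them among the triangles, and IL1B in capillary-like cells has its highest value, 205 CPM, in Injury_1.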

How the data were processed

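UMI counts per gene and barcode of the 4 libraries (10x Genomics 3' kit, v3) were deposited by the authors as whole numbers, with no normalization, made with Cell Ranger 6.0.1 per the file headers. The genome build is not given in the sources used here. The limits on UMIs, genes and mitochondrial share are those of the study's methods and were applied here, since the deposited tables hold cells outside them. Of 18475 genes, 9771 carry a symbol, and genes without one stay unnamed.

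Members and gene lists were chosen with earlier results of these data known. UMIs were summed per sample and class. edgeR 4.0.16 (filterByExpr, TMM, quasi-likelihood test, Benjamini-Hochberg threshold 0.05) tested injured against normal samples, and classes or subsets with the sample as a block. DESeq2 1.42.0 was the other tool. Genes were named by rule as the largest changes each way among called genes with a symbol, a mean of 20 CPM or more on the higher side and one direction in every sample (12 each way against venous-like cells, 8 against arterial-like cells and for the ESM1 split), the 5 largest each way for the interaction, and the 5 smallest p each way where no gene was called. Genes of the lists were also named. Shares were compared by two-sided exact permutation tests (scipy 1.17.1). Doublets were scored with Scrublet (scanpy 1.11.5) and kept, except in an alternative. The fits were tested on simulated data. Alternatives changed the cell limits, the gate, the scaling, the filter on low counts and the tool, and left out each sample.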

Additional observations from a re-analysis of the deposited data

Results flagged for a closer look

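By the edgeR test of the interaction, 11 genes with a symbol had a different injury log2 fold change in capillary-like and venous-like cells. Of these, GBP1 (-0.899) and TXN (-0.782) fell outside the rule for naming, and the other 9 are given here. The difference, capillary-like minus venous-like, was 3.38 for IL1B, 2.68 for VEGFC, 2.20 for FGL2 and 0.94 for HES1. It was -2.86 for F3, -1.65 for MGP, -1.34 for PRSS23, -1.16 for TIMP1 and -1.11 for AKAP12. Over 7 alternatives the highest adjusted p was 0.0759 for IL1B, 0.421 for VEGFC, 0.227 for FGL2, 0.240 for HES1, 0.0407 for F3, 0.0374 for MGP, 0.156 for PRSS23, 0.111 for TIMP1 and 0.287 for AKAP12. DESeq2 gave F3 and VEGFC no adjusted p. With 2 samples in each condition, no sample could be checked for standing apart within its condition.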

How the results depend on the processing

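The count of genes called between injured and normal capillary-like cells was 0, and became 208 with no filter on low counts, 37 in DESeq2, 2 with the gate on KDR alone and 12 to 302 when 1 sample was left out. The other changes of scaling, cell limits and gate left it at 0. Against venous-like cells the 1036 calls became 545 after thinning to 2000 UMIs and 607 to 725 without 1 sample. Against arterial-like cells the 549 calls became 838 with no filter, 332 in DESeq2, 75 after thinning and 264 to 607 without 1 sample. For the ESM1 split the 30 calls became 106 with no filter and 11 to 47 without 1 sample. For the interaction the 14 calls became 184 with no filter, 26 in DESeq2 and 8 to 154 without 1 sample. Except where fewer samples or more genes entered the fit by construction, the cause was not tested.

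The share among all kept cells, injured minus normal, was -7.88 percentage points and became -8.79 with a mitochondrial limit of 10%, -5.98 with a margin of 2 UMIs, -5.91 with no DCN or LUM UMI, -5.41 after thinning and -4.85 with the gate on KDR alone. It was -8.41 to -7.35 without 1 sample. The share among blood endothelial gated cells was -18.4 points, -26.1 to -10.8 without 1 sample and -10.4 with the gate on KDR alone. The gate on KDR alone, the limit of 2% for DCN and LUM and the scale of summed UMIs were chosen after seeing the data.

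Replicate numbers are shared by the conditions, but nothing says that they pair rabbits. With the replicate block the injured against normal fit called 0 genes, and with 2 pairs no check of the pairing could be decisive. For named genes, the alternatives that gave an adjusted p kept the direction in all cases. The call was lost in 0 of 327 against venous-like cells, 1 of 114 against arterial-like cells, 25 of 116 for the ESM1 split and 12 of 61 for the interaction, and gained in 47 of 164 for injury. The injured sums are the shallowest, which limits genes of low level.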
